A study of Mus musculus with 6 samples.

Results

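The comparison described here set Ki-67 knockout clone 1 of the mouse cell line 4T1 against its wild type (WT) parent. 4T1 is a mammary carcinoma line from BALB/c mice. Of the 6 RNA-seq libraries in the study, 4 make up this comparison, namely clone 1 replicates 1 and 2 and WT replicates 1 and 2. The other two libraries are replicates 1 and 2 of Ki-67 knockout clone 2, which was compared with the same WT libraries and served to separate changes of clone 1 from changes found in both clones. WT cells carry intact Mki67, and both clones are labelled Mki67-/-. All cells were grown in the same medium with serum and no further treatment is given in the labels. Each clone is 1 line, so the effect of losing Ki-67 and a property of the founder cell cannot be told apart within clone 1. Nothing in the labels ties the 2 replicates of a group to different cultures. The p-values therefore rest on library-to-library spread, part of which may be technical.

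Ki-67 is a large nuclear protein of proliferating cells that coats mitotic chromosomes and is widely used as a proliferation marker in tumours. A clone is grown from a single cell after gene editing, and it keeps the chromosome content and expression state of that cell along with the edited gene. Cells of the 4T1 line form tumours that spread, secrete cytokines acting on neutrophils, and hold mixed epithelial and mesenchymal features.

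Reads assigned to genes numbered between 10428970 and 22658499 per library, with the lowest total in WT replicate 1. The 5 epithelial markers Epcam, Cdh1, Krt8, Krt18 and Krt14 were read in all 6 libraries, with summed levels of 2547 to 3916 CPM (read counts scaled to each library's normalised total). Summed levels of the 4 leukocyte, 4 fibroblast and 4 endothelial markers did not exceed 0.118, 0.295 and 0.354 CPM, and Cd3e, Lum, Cdh5 and Kdr had no read in any library. The libraries of each group differed by far more than counting noise, with a chi-square per degree of freedom of 86.9 between the WT libraries, 19.7 between the clone 1 libraries and 27.8 between the clone 2 libraries. In bulk RNA, fewer cells of a type and less RNA per cell cannot be told apart.

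The targeted gene, Mki67, lies at chr7:135689784-135716361 on the minus strand of GRCm38 (ENSMUSG00000031004). Its level was 736 and 647 CPM in the WT libraries, 85.7 and 102 in clone 1, with 39.9 and 52.7 in clone 2. The groups did not overlap, and clone 1 lay between WT and clone 2. Mki67 fell by 2.88 ± 0.15 (log2, SE, n = 2 per group) in clone 1, with an adjusted p of 4.03e-10, and by 3.90 ± 0.16 in clone 2. Clone 1 kept more Mki67 RNA than clone 2, by 1.02 ± 0.14 on the log2 scale (adjusted p = 0.000162). RNA levels say nothing of whether a full protein is made.

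Clone 1 differed from WT across much of the transcriptome. Of 13755 genes tested, 6998 (50.9%) passed an adjusted p of 0.05 in edgeR's quasi-likelihood test, 3400 higher (24.7%) and 3598 lower (26.2%). By over 2-fold, 1092 were higher and 1541 lower. Clone 2 had 7349 calls (53.4%) against the same WT libraries, so the 2 comparisons share their controls. Between the clones, 3232 genes (23.5%) were called, 1564 higher in clone 1 (11.4%) and 1668 lower (12.1%).

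The 10 largest rises in clone 1, among genes with an ordinary symbol and an average log2 CPM of 3 or more, included genes of matrix contact, growth factor signalling and Notch. Ap1m2, the epithelial medium subunit of the AP-1 clathrin adaptor, was read at 0.394 and 0.0590 CPM in WT and at 47.9 and 48.3 CPM in clone 1. L1cam, a neural cell adhesion molecule, rose from 3.05 and 3.24 CPM in WT to 62.2 and 58.0 in clone 1, against 26.1 and 28.7 in clone 2. The rise of L1cam was larger in clone 1 by 1.13 ± 0.12 (log2, adjusted p = 1.38e-05). Tnc, an extracellular matrix glycoprotein, rose by 4.37 ± 0.25 in clone 1 and by 3.48 ± 0.26 in clone 2. Mmp9, a gelatinase, rose by 3.34 ± 0.14 in clone 1 and by 5.44 ± 0.15 in clone 2. Dll4, a Notch ligand, rose by 3.23 ± 0.17 in clone 1 and 3.35 ± 0.17 in clone 2, and Areg, an EGF receptor ligand, by 3.16 ± 0.16 and 3.33 ± 0.16. Slc4a11, Adam12, Tmem51 and Lama3 were the others of these rises, with log2 changes in clone 1 from 2.95 to 3.56.

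Among the 10 largest losses at the same level, several genes had almost no reads left in clone 1. Hexa, a subunit of the lysosomal enzyme hexosaminidase, had 2138 reads in the WT libraries together and 0 in clone 1. Its WT level was 1196-fold above a floor of 3 reads summed across clone 1 (exact 95% lower bound of the ratio, 961). Vldlr, a lipoprotein receptor, had 992 reads in WT and 0 in clone 1, with a WT level 558-fold above that floor (exact 95% lower bound, 445). Mal2, a membrane trafficking protein, had 1738 reads in WT and 1 in clone 1, a ratio of 2884 with an exact 95% counting interval of 517 to 113981. These 3 genes were at 0 or 1 read in clone 2 as well, and fell in both clones. Lcp1, the actin bundler L-plastin, fell by 9.14 ± 0.21 in clone 1 and by 7.59 ± 0.19 in clone 2. Gpnmb fell by 9.09 ± 0.30 in clone 1, and Pmp22, Zfp704 and Ly6e were also among the 10.

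**Figure D1:**
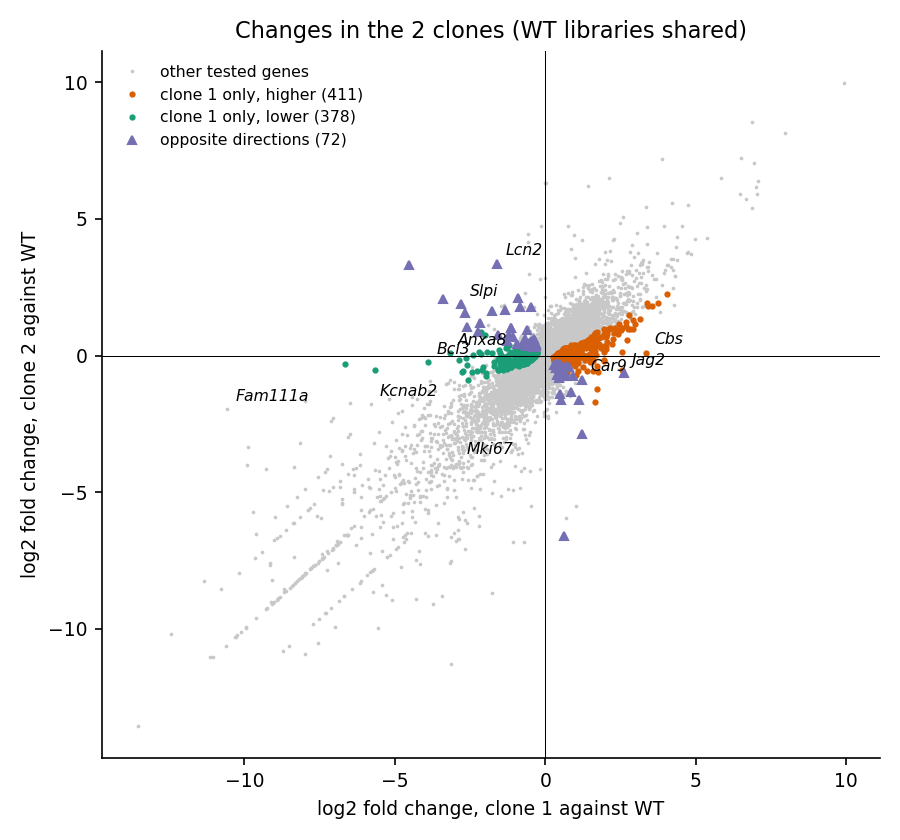
Log2 fold change of each tested gene in clone 1 (x axis) and clone 2 (y axis), both against the same 2 WT libraries. Orange and green points are the 411 and 378 genes that changed in clone 1 only, and triangles are the 72 genes called in opposite directions. Fitted values below about -10 belong to genes with almost no reads in a clone and depend on the fit's prior count.

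Changes specific to clone 1 were defined as genes called against WT in clone 1, not called in clone 2, and called between the clones in the same direction. This held for 789 genes (5.74% of those tested), 411 higher (2.99%) and 378 lower (2.75%). A further 925 genes were called in clone 1 and not in clone 2 but did not differ between the clones by the test. The median log2 change of the 411 was 0.72 in clone 1 and 0.07 in clone 2, and that of the 378 was -0.59 and -0.02. Over 2-fold changes were found for 136 of the higher and 69 of the lower genes. The counts moved with single libraries. In place of 789 genes, 405 met the definition without clone 1 replicate 1, 288 without clone 1 replicate 2, 232 without clone 2 replicate 1 and 481 without clone 2 replicate 2. Without WT replicate 1 the number was 1110, and without WT replicate 2 it was 851.

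Base composition moved with this set. The median GC content of the transcript was 45.9% for the 411 higher genes, 53.7% for the 378 lower genes and 49.4% for all tested genes. Over 5 equal bins from low to high GC, the median log2 difference between clone 1 and clone 2 ran from 0.29 to -0.21. For clone 2 against WT it ran from -0.37 to 0.21, while for clone 1 against WT it stayed between -0.07 and 0.03. The WT libraries also differed from each other along GC, by 0.19 in the lowest bin and -0.27 in the highest. With each library's GC trend removed, 454 higher and 395 lower genes met the definition, of which 262 and 218 were among those above. The part of base composition in any single gene was not tested.

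Anxa8, which encodes a calcium-dependent membrane-binding annexin, had the largest fall specific to clone 1 among genes with an average log2 CPM of 2 or more. It lies at chr14:34085981-34100571 on the plus strand. The WT libraries read 38.3 and 33.8 CPM, clone 1 read 3.88 and 4.04, and clone 2 read 39.7 and 36.6. Clone 1 was thus below all 4 other libraries, and the WT and clone 2 ranges overlapped. The log2 change was -3.18 ± 0.15 in clone 1 (adjusted p = 1.89e-10) and 0.08 ± 0.13 in clone 2, and the difference between clones was -3.27 ± 0.15. Its promoter is shown because of that rank. The window, from RefSeq on GRCm38.p6, is chr14:34085729-34085990 (plus strand), 250 bases before the annotated start and the first 12 transcribed bases, and it held no match to the 6 motifs searched here.
Anxa8: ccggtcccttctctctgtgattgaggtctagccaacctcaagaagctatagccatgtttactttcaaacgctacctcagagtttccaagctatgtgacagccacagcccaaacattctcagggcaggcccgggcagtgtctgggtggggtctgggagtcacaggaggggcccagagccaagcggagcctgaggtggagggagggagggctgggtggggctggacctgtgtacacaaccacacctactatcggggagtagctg

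Tmem176a, a membrane protein of the MS4A-like family, was at 42.2 and 51.9 CPM in WT, 16.2 and 16.4 in clone 1 against 54.9 and 53.7 in clone 2. Its divergent neighbour Tmem176b, named after its values were seen, was at 121 and 137 CPM in WT, 53.4 and 50.1 in clone 1, with 160 and 154 in clone 2. Both genes were lowest in clone 1 with no overlap of groups. Tmem176a fell by 1.53 ± 0.13 and Tmem176b by 1.32 ± 0.12 on the log2 scale in clone 1.

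St5, a gene linked to MAP kinase signalling, fell from 27.3 and 35.4 CPM in WT to 9.47 and 8.89 in clone 1, with 33.7 and 32.9 in clone 2. Chst11, a chondroitin sulfotransferase, was at 22.6 and 18.5 CPM in WT, 7.09 and 6.87 in clone 1 against 17.5 and 19.8 in clone 2. Flnc, the actin crosslinker filamin C, was at 24.7 and 43.9 CPM in WT, 12.7 and 11.3 in clone 1, with 32.2 and 29.7 in clone 2. For all 3 genes both clone 1 libraries were the lowest. Slfn2, of the Schlafen family, fell by 2.603 ± 0.25 in clone 1 and was at -0.35 ± 0.21 in clone 2. Btbd2, Epop, Nipa1 and Prickle1 fell in clone 1 by 1.44 to 1.58 on the log2 scale. Epop and Btbd2 met the definition in only 10 and 13 of the 20 alternative analyses, while both stayed called against WT in clone 1 in all 20.

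The 12 largest rises of clone 1 alone, among genes with an average log2 CPM of 2 or more, had log2 changes from 1.02 to 1.57. Tle4, a transcriptional corepressor of the Groucho family, was at 10.7 and 8.79 CPM in WT, 29.5 and 28.1 in clone 1 against 11.7 and 12.2 in clone 2. Hist2h2be, a histone H2B gene, was at 8.08 and 9.62 CPM in WT, 21.1 and 21.1 in clone 1, with 7.47 and 5.995 in clone 2. Both genes were highest in the 2 clone 1 libraries. Epha8, an ephrin receptor, rose by 1.43 ± 0.22, and Nrp1, a coreceptor for semaphorins and VEGF, by 1.07 ± 0.15. Ppp1r10, a regulatory subunit of protein phosphatase 1, rose by 1.16 ± 0.13 from 79.9 and 83.6 CPM in WT. Fahd1, Zfp948, Ppp1r10, Oard1 and Zfp942, 5 of the 12, lie on chromosome 17, and Epha8 and Bend5 lie on chromosome 4. Adamtsl3 and Zfp930 complete the list, with rises of 1.40 ± 0.18 and 1.07 ± 0.17. Zfp930 and Zfp948 met the definition in 12 and 13 of 20 alternatives.

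Opposite calls against WT were made for 72 genes (0.523%), 33 higher (0.24%) and 39 lower (0.284%) in clone 1. Jag2, a Notch ligand at chr12:112907819-112929776, was at 4.34 and 6.96 CPM in WT, 35.1 and 35.7 in clone 1 against 3.77 and 3.71 in clone 2. Both clone 1 libraries stood above the other 4. Jag2 rose by 2.599 ± 0.18 in clone 1 (adjusted p = 1.2e-08) and fell by 0.64 ± 0.21 in clone 2 (adjusted p = 0.0181). The fall in clone 2 was lost in 4 of the 20 alternatives, the difference between clones in none of them.

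Car9, a cell-surface carbonic anhydrase known as a hypoxia-inducible gene, was at 15.8 and 21.5 CPM in WT, 45.8 and 43.0 in clone 1, with 10.1 and 10.4 in clone 2. The 3 groups did not overlap. Loxl4, a lysyl oxidase that crosslinks collagen, was at 178 and 177 CPM in WT, 295 and 311 in clone 1 against 130 and 137 in clone 2, again without overlap. Paqr4 rose by 0.87 ± 0.14 in clone 1 and fell by 1.35 ± 0.16 in clone 2, and Ak3, a mitochondrial adenylate kinase, rose by 0.44 ± 0.12 and fell by 0.84 ± 0.13.

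Among opposite calls lower in clone 1, at an average log2 CPM of 3 or more, Lcn2 and Slpi differed most between the clones. Lcn2, the iron-scavenging neutrophil lipocalin (chr2:32384633-32388252), was at 7.09 and 10.4 CPM in WT, 3.30 and 2.65 in clone 1, with 98.6 and 85.7 in clone 2. Slpi, a secreted inhibitor of leukocyte proteases (chr2:164354070-164389095), was at 15.9 and 20.1 CPM in WT, 2.95 and 2.29 in clone 1 against 73.1 and 60.0 in clone 2. In both cases clone 1 was lowest and clone 2 highest, with no overlap. The log2 difference of clone 1 from clone 2 was -4.95 ± 0.19 for Lcn2 and -4.66 ± 0.18 for Slpi.

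Ikbke, a kinase of the innate immune and NF-kB pathways, was at 20.3 and 26.1 CPM in WT, 16.7 and 16.9 in clone 1, with 81.1 and 79.1 in clone 2. Its fall in clone 1, 0.48 ± 0.14 on the log2 scale (adjusted p = 0.00944), was no longer called in 5 of the 20 alternatives. Vegfc, a lymphatic growth factor, was at 10.6 and 14.4 CPM in WT, 5.28 and 5.17 in clone 1 against 18.1 and 18.4 in clone 2. Glipr2 fell by 0.60 ± 0.18 in clone 1 and rose by 0.95 ± 0.17 in clone 2.

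**Figure D2:**
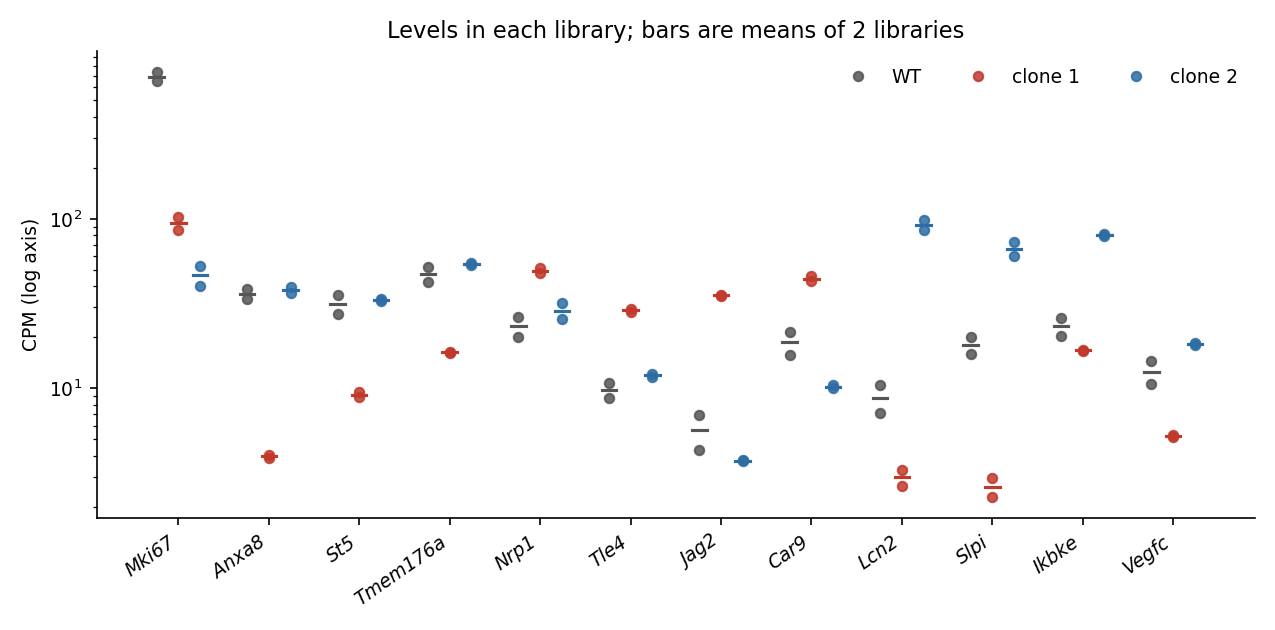
Level of 12 genes in each library (CPM, log axis); points are libraries, grey WT, red clone 1, blue clone 2, and bars are means of 2 libraries. Anxa8, St5, Tmem176a, Lcn2, Slpi and Vegfc are lowest in clone 1, where Jag2, Car9, Tle4 and Nrp1 are highest, while Mki67 is low in both clones.

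In a further 422 genes (3.07%) both clones moved the same way and clone 1 moved farther, 190 higher (1.38%) and 232 lower (1.69%). Fam111a, a serine protease active at replication forks (chr19:12545740-12589768), was at 47.0 and 41.5 CPM in WT and at 10.5 and 12.3 in clone 2. Clone 1 held 1 read of it in both libraries together, against 1181 in WT and 463 in clone 2. The ratio of WT to clone 1 was 1960, with an exact 95% counting interval of 351 to 77473. The same pattern was found for Kcnab2, a potassium channel subunit, at 26.9 and 30.6 CPM in WT, 0.396 and 0.629 in clone 1, with 9.53 and 7.33 in clone 2. Slc39a4, a zinc importer, was at 22.96 and 24.5 CPM in WT, 0.528 and 0.764 in clone 1 against 9.002 and 6.77 in clone 2. For these genes the clones did not overlap, and clone 2 lay between clone 1 and WT. The log2 changes of Xdh and Stab1 were -7.37 ± 0.31 and -3.16 ± 0.23 in clone 1, against -4.94 ± 0.24 and -0.91 ± 0.19 in clone 2.

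Only 3 genes had at most 3 reads in clone 1 while being at 1 CPM or more in WT and in clone 2. Besides Fam111a these were Cdc42ep5, a CDC42 effector read 78 times in WT, 1 time in clone 1 and 93 times in clone 2, and Tmem121, read 126, 2 and 56 times. The WT to clone 1 ratios were 129 (interval 22.6 to 5177) and 105 (interval 28.4 to 873). No gene showed the reverse, which would be 1 CPM or more in clone 1 and at most 3 reads in each of the other groups.

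Among genes that rose farther in clone 1, the noncoding RNA Snhg1, a host of small nucleolar RNAs, was at 109 and 92.9 CPM in WT, 391.5 and 403 in clone 1, with 197 and 210 in clone 2. Crip1, a LIM-domain protein, was at 100 and 102 CPM in WT, 232 and 264 in clone 1 against 130 and 128 in clone 2. Rab26os and Cachd1 rose by 2.29 ± 0.20 and 1.68 ± 0.18 in clone 1, against 1.00 ± 0.21 and 0.68 ± 0.19 in clone 2. Rab26os is annotated as antisense to a coding gene, and its reads rest on the strand kept in the counting.

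Notch signalling passes between neighbouring cells, with Delta and Jagged ligands on 1 cell activating Notch receptors on the next, which release a fragment that turns on Hes and Hey repressors. Of 18 Notch genes tested, 11 were higher and 2 lower in clone 1 than in WT, against 24.7% and 26.2% of all tested genes. Their median log2 change was 0.74, against -0.01 over all tested genes. In clone 2, 9 were higher and 6 lower than in WT, against 25.3% and 28.2% of all tested genes. Relative to clone 2, 6 were higher and 2 lower in clone 1, against 11.4% and 12.1% of all tested genes. Among ligands, Jag2 moved in opposite directions (above), Dll4 rose in both clones (above), and Dll1 rose by 0.76 ± 0.13 in clone 1 against 1.26 ± 0.13 in clone 2.

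Among receptors, Notch4 was at 0.394 and 0.295 CPM in WT, 2.42 and 2.07 in clone 1, with 0.471 and 0.518 in clone 2. Hey2, a target repressor, had 3 reads in WT, 31 in clone 1 and 3 in clone 2. Both genes were highest in the clone 1 libraries, at low levels. Their clone 1 reads carried both through the count filter, so being high there was part of the condition for testing. Notch1 was at 55.5 and 86.5 CPM in WT, 63.2 and 53.5 in clone 1 against 36.6 and 38.7 in clone 2, and its change in clone 1, -0.29 ± 0.17, was not called. Without either clone 2 library, 2 of the 18 genes in place of 6 were called higher than in clone 2, and without clone 1 replicate 1, 3 were.

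The NF-kB pathway carries inflammatory signals to the nucleus through Rel-family subunits and induces its own inhibitors. Of 22 subunits, receptors and feedback genes tested, 4 were higher and 7 lower in clone 1, against 24.7% and 26.2% of all tested genes. The median log2 change of the 22 was -0.16 in clone 1 and 0.43 in clone 2. Relative to clone 2, 12 were lower and 2 higher, against a background of 12.1% and 11.4% of all tested genes. The 12 became 16 without either WT library, 8 without clone 1 replicate 2 or clone 2 replicate 1, and 11 with the GC trend removed.

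Bcl3, an atypical IkB protein that acts as a nuclear cofactor, was at 3.25 and 3.48 CPM in WT, 0.176 and 0.270 in clone 1, with 3.24 and 2.55 in clone 2. Nfkbia, which encodes the inhibitor IkB-alpha, was at 61.0 and 81.9 CPM in WT, 43.9 and 42.6 in clone 1 against 76.4 and 83.0 in clone 2. Tnip1, which binds the inhibitor A20, was at 55.4 and 62.4 CPM in WT, 34.0 and 37.6 in clone 1, with 85.6 and 76.6 in clone 2. All 3 feedback genes were lowest in clone 1 without overlap. Birc3, an inhibitor of apoptosis induced by NF-kB, fell by 2.35 ± 0.21 in clone 1 and by 0.82 ± 0.18 in clone 2. Nfkb1, Tnfaip3, Nfkbiz and Myd88 were not called in clone 1 (adjusted p from 0.0516 to 0.409) and were lower in clone 1 than in clone 2, where they rose.

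Secreted inflammatory signals showed the same order of clones. Of 21 cytokines and chemokines tested, 9 were higher and 7 lower in clone 1 than in WT. Relative to clone 2, 14 were lower in clone 1. Over all tested genes, 24.7% were higher and 26.2% lower than WT, and 12.1% were lower than clone 2. Il1a, the interleukin-1 alpha alarmin, was at 8.08 and 6.84 CPM in WT, 18.1 and 21.6 in clone 1 against 552 and 539 in clone 2. Csf3, the granulocyte growth factor G-CSF, was at 14.2 and 20.8 CPM in WT, 41.8 and 41.5 in clone 1, with 351 and 311 in clone 2. Both rose in clone 1, and clone 2 stood far above both other groups.

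Cxcl5, a neutrophil-attracting chemokine, was at 29.6 and 36.3 CPM in WT, 28.3 and 30.6 in clone 1 against 230 and 234 in clone 2, and its change in clone 1, -0.17 ± 0.13, was not called. Cxcl1 rose by 0.99 ± 0.14 in clone 1 and by 3.58 ± 0.15 in clone 2. Csf1, the macrophage growth factor, fell by 1.00 ± 0.12 in clone 1 and by 0.35 ± 0.12 in clone 2. Cxcl2 was the only member that changed in clone 1 alone, with 14 reads in WT, 5 in clone 1 and 37 in clone 2. Its call in clone 1 was lost in 5 of the alternatives.

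The promoters of Bcl3 and Hey2 are shown because they belong to the 2 signalling lists and held a match to 1 of the 6 motifs each. Both windows are from RefSeq on GRCm38.p6, on the minus strand, and hold 250 bases before the start and the first 12 transcribed bases. Bcl3 is at chr7:19822744-19823005, and capitals mark the NF-kB letters, GGGA and CC with any 4 bases between. Hey2 is at chr10:30842772-30843033, and capitals mark GGAATG, the letters of a TEAD site, read on the opposite strand.
Bcl3: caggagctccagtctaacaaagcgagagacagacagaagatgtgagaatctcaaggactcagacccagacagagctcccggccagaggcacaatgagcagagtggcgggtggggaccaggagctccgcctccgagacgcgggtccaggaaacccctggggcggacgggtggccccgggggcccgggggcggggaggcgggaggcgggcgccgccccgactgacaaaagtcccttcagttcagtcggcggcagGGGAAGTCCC
Hey2: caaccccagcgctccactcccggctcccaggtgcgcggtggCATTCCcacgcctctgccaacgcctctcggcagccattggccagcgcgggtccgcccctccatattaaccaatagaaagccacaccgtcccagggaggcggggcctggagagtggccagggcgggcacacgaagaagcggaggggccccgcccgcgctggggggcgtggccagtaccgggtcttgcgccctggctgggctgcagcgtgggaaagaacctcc

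Motif shares were counted on both strands in RefSeq windows of 300 bases (250 before and 50 after the start), which 9542 of the tested genes had. The NF-kB letters were present in 26.9% of all these windows, in 30.96% of the 281 windows of genes higher in clone 1 only, and in 32.2% of the 301 windows of genes lower in clone 1 only. GGAATG was present in 11.9%, 12.8% and 12.3%. The interferon-response letters, a pair of GAAA with 2 bases between, were in 2.86%, 1.07% and 1.99%, the AP-1 letters TGANTCA in 4.76%, 6.76% and 4.32%, the CREB letters TGACGTCA in 3.43%, 4.98% and 2.66%, and the E-box CACGTG in 10.5%, 10.3% and 9.30%. These shares are descriptions and were not tested, and a match is not a shown binding site.

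Genes of oxidative phosphorylation fell more often than they rose in clone 1. The respiratory chain passes electrons through complexes I to IV of the inner mitochondrial membrane to drive ATP synthase. Of 66 nuclear-encoded subunits tested, 26 were lower and 3 higher in clone 1 than in WT, with a median log2 change of -0.27 against -0.04 in clone 2. Over all tested genes 26.2% were lower and 24.7% higher. Relative to clone 2, 20 were lower and 1 higher, where 12.1% of all tested genes were lower. The 26 became 16 without clone 1 replicate 1, and the 20 became 9 without either clone 1 library and 4 without clone 2 replicate 1. With the GC trend removed the counts were 30 and 20, and with chromosome medians removed 25 and 24. Requiring a change above 1.5-fold left 8 and 0.

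Uqcr11, a complex III subunit, was at 68.9 and 56.8 CPM in WT, 30.6 and 33.6 in clone 1, with 58.4 and 49.2 in clone 2. Atp5d, the delta subunit of ATP synthase, was at 221 and 266 CPM in WT, 129 and 126 in clone 1 against 212 and 189 in clone 2. Cox6a1, of complex IV, was at 227 and 228 CPM in WT, 136 and 147 in clone 1, with 241 and 205 in clone 2. Each of these was lowest in the 2 clone 1 libraries. Of the 11 subunits that changed in clone 1 alone, 10 fell, among them Ndufb11, Ndufa8, Atp5o, Ndufs7, Ndufb7 and Atp5b, by 0.35 to 0.82. Ndufv2, on chromosome 17, rose by 0.49 ± 0.13. The sign of Ndufv2 and of Atp5b turned when chromosome medians were removed. Uqcr11, Atp5d, Ndufs7 and Atp5b lie on chromosome 10, whose median was low in both clones.

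The proteasome degrades ubiquitin-tagged proteins, and of 32 constitutive subunits 15 were lower and 2 higher in clone 1, with a median of -0.29 against 0.03 in clone 2. Relative to clone 2, 16 were lower. The shares over all tested genes were 26.2% lower and 24.7% higher than WT, and 12.1% lower than clone 2. Without clone 1 replicate 1 the 15 became 5 and the 16 became 4, and the 16 became 6, 4 and 9 without clone 1 replicate 2, clone 2 replicate 1 and clone 2 replicate 2. With the GC trend removed they were 19 and 18, and with chromosome medians removed 11 and 16. Requiring a change above 1.5-fold left 0 and 1. Psmb5, the chymotrypsin-like catalytic subunit, was at 12.3 and 18.3 CPM in WT, 9.64 and 9.93 in clone 1 against 19.9 and 24.2 in clone 2, and was called in opposite directions. Psmd13, Psmb4, Psmb6, Psmd4 and Psmc4 fell in clone 1 alone, by 0.36 to 0.65 on the log2 scale.

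The unfolded protein response raises chaperones of the endoplasmic reticulum. Against the same all-gene shares, of 19 such genes tested, 7 were lower and 3 higher in clone 1, and 11 were lower than in clone 2. The 11 became 5 or 6 without any 1 of the 4 clone libraries. Sdf2l1, a chaperone cofactor, was at 8.77 and 12.5 CPM in WT, 6.12 and 6.602 in clone 1, with 15 and 12.46 in clone 2. Dnajb11 fell by 0.49 ± 0.12 in clone 1 alone. Xbp1 and Creld2 met the definition at adjusted p-values of 0.0405 and 0.0488 and lost their call in 10 and 12 of the alternatives. Of 63 mitochondrial ribosomal proteins, 12 were higher and 13 lower in clone 1, against 24.7% and 26.2% of all tested genes. Relative to clone 2, 15 were lower and 1 higher, against 12.1% and 11.4%. The 15 became 7, 5, 3 and 8 without clone 1 replicate 1, clone 1 replicate 2, clone 2 replicate 1 and clone 2 replicate 2.

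Wnt ligands and guidance cues changed gene by gene. Against 24.7% higher and 26.2% lower over all tested genes, of 25 Wnt genes, 7 were higher and 11 lower in clone 1. Wnt10a, a Wnt ligand, was at 25.8 and 41.0 CPM in WT, 12.3 and 12.5 in clone 1 against 34.6 and 28.9 in clone 2, lowest in clone 1 without overlap. The receptor Fzd2 and the pathway inhibitor Nkd2 also fell in clone 1 alone, by 0.71 ± 0.15 and 1.47 ± 0.50, and the nuclear effector Tcf7l2 rose by 0.61 ± 0.20. Of 33 genes of axon guidance and neural adhesion, 12 were higher and 9 lower. Ntn1, the secreted cue netrin-1, was at 8.67 and 15.9 CPM in WT, 4.71 and 3.73 in clone 1, with 12.9 and 10.3 in clone 2. Efna5 rose by 1.02 ± 0.16 and Sema6d by 0.89 ± 0.28 in clone 1 alone, while Efna2 fell by 2.09 ± 0.53 on 29 reads in WT and 11 in clone 1.

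Of 45 epithelial junction and keratin genes, 22 were higher and 6 lower in clone 1, where 24.7% and 26.2% of all tested genes were. In clone 2, 22 were higher and 10 lower, against 25.3% and 28.2% of all tested genes. Esrp1, an epithelial splicing factor, was at 120 and 108 CPM in WT, 176 and 170 in clone 1 against 98.4 and 106 in clone 2. Epcam, an epithelial adhesion molecule, was at 239 and 229 CPM in WT, 553 and 593 in clone 1, with 304 and 327 in clone 2. Both were highest in clone 1 with no overlap. Crb3, a polarity protein, and Cldn6, a tight junction claudin, rose by 0.97 ± 0.13 and 1.79 ± 0.30 in clone 1 alone. Epcam, Crb3 and Cldn6 lie on chromosome 17 and Esrp1 on chromosome 4.

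Postn, the matricellular protein periostin, was at 1.18 and 1.48 CPM in WT, 5.81 and 5.53 in clone 1 against 1.29 and 2.42 in clone 2. Tgfbr1, a TGF-beta receptor, rose by 0.53 ± 0.13 in clone 1 alone, as did the receptor kinases Ephb2 (0.61 ± 0.13) and Ror1 (1.05 ± 0.27). The membrane protease Mmp14 fell by 0.77 ± 0.13 and Adam15 by 0.63 ± 0.14, and the secreted protease Adamts1 rose by 0.56 ± 0.12. Itgb5, an integrin subunit, fell by 0.86 ± 0.14, and Foxa1, a luminal mammary factor, by 1.47 ± 0.45 on 27 reads in WT and 16 in clone 1.

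In metabolism, Cbs, which makes cystathionine from homocysteine, was at 0.296 and 0.118 CPM in WT, 1.98 and 1.93 in clone 1, with 0.235 and 0.173 in clone 2. Its 88 reads in clone 1 stood against 5 in WT and 8 in clone 2, and carried it through the count filter. Psph, of serine synthesis, fell by 0.61 ± 0.12 in clone 1 alone. Of 37 glycolysis and hypoxia genes, 8 were higher and 13 lower in clone 1, where 24.7% and 26.2% of all tested genes were. Relative to clone 2, 15 were lower and 2 higher, against all-gene shares of 12.1% and 11.4%. The 15 became 8, 9 and 4 without clone 1 replicate 1, clone 1 replicate 2 and clone 2 replicate 1. Pfkl, the liver-type phosphofructokinase, was at 198 and 257 CPM in WT, 161 and 170 in clone 1 against 283 and 251 in clone 2. Egln3 and Pfkfb3 fell by 0.78 ± 0.14 and 0.62 ± 0.21, in contrast to the rise of Car9. Of 40 genes of cholesterol and fatty acid synthesis, 19 were higher and 7 lower in clone 1, against 24.7% and 26.2% of all tested genes. In clone 2, 24 were higher and 7 lower. Hmgcs1, of cholesterol synthesis, rose by 0.74 ± 0.12, and Ebp and Acacb fell by 0.38 ± 0.14 and 1.01 ± 0.28. The call of Ebp was lost in 8 of the alternatives.

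Genes of DNA repair and replication are read against the 24.7% higher and 26.2% lower of all tested genes. Of 30 homologous recombination and checkpoint genes, 6 were higher and 15 lower in clone 1, with a median log2 change of -0.36. In clone 2, 4 were higher and 19 lower, against 25.3% and 28.2% of all tested genes, with a median of -0.51. The list thus fell more often than it rose in both clones, while its 4 genes specific to clone 1 all rose. Chek1, the checkpoint kinase, was at 49.6 and 49.02 CPM in WT, 76.2 and 95.9 in clone 1, with 48.5 and 63.4 in clone 2. Rbbp8, which starts end resection, Nbn, of the MRN complex, and Mdc1, a damage scaffold, rose in clone 1 alone by 0.84 ± 0.16, 0.57 ± 0.14 and 0.40 ± 0.12, the sign of Mdc1 turning when chromosome medians were removed. Of 40 replication genes, 15 were higher and 10 lower in clone 1, with a median of 0.11. In clone 2, 16 were higher and 4 lower, with a median of 0.17. The only 3 specific to clone 1, Rfc2, Rfc5 and Cdc45, fell by 0.54, 0.43 and 0.34 on the log2 scale.

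Some lists changed in both clones, and their values are given side by side, as sameness was not tested. In clone 1, 26.2% of all tested genes were lower than WT and 24.7% higher. Of 33 interferon-induced genes, 28 were lower in clone 1, with a median of -2.63 against -2.77 in clone 2. Oasl1, a 2'-5'-oligoadenylate synthetase-like gene, was at 21.5 and 24.4 CPM in WT, 1.28 and 1.30 in clone 1 against 0.706 and 0.604 in clone 2. Of 38 lysosome genes, 28 were lower and 2 higher in clone 1, with a median of -0.88 against -0.51, and 10 were lower than in clone 2, where 12.1% of all tested genes were. Of these genes, Gm2a, Npc2 and Gusb fell in clone 1 alone. Npc2 and Gusb kept their clone 1 calls less widely, losing them in 5 and 8 of the alternatives.

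Of 48 ribosome biogenesis genes, 32 were higher, with a median of 0.60 against 0.69. ERK feedback genes were higher in 17 of 20 cases in clone 1 and in 17 in clone 2, with medians of 1.1 and 1.4. In the list of G2 and mitosis genes, 8 of 45 were higher and 11 lower in clone 1, where 24.7% and 26.2% of all tested genes were. The median was -0.09 in clone 1 and -0.26 in clone 2. In clone 2, 9 were higher and 21 lower, against 25.3% and 28.2% of all tested genes. Replication-dependent histones were higher in 16 of 30 (22 in clone 2), in libraries made after rRNA depletion, which keep transcripts without a poly(A) tail.

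**Figure D3:**
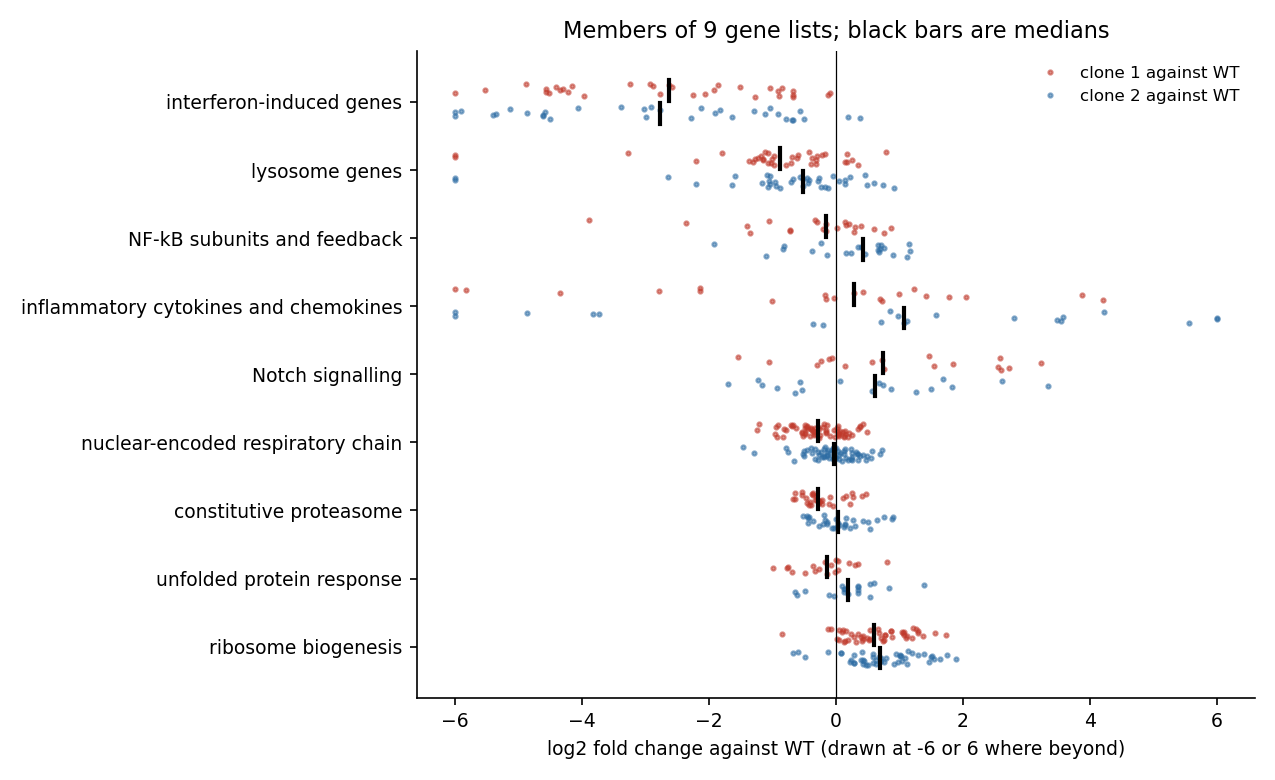
Log2 fold change against WT of the members of 9 gene lists in clone 1 (red) and clone 2 (blue), with black bars at the medians and values beyond 6 drawn at the edge. Medians of the interferon list are nearly the same in both clones (-2.63 and -2.77), while those of the NF-kB, respiratory chain and proteasome lists lie lower in clone 1.

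The genes that changed in clone 1 alone were unevenly spread over chromosomes. On chromosome 17, 96 of 655 tested genes (14.7%) were higher and 0 lower in edgeR's test (1 lower in DESeq2's). On chromosome 4, 67 of 835 (8.02%) were higher and 4 lower. On chromosome 14 the order was reversed, with 47 of 452 (10.4%) lower and 1 higher. Over the remaining chromosomes, leaving out these 3, 2.09% of tested genes were higher and 2.77% lower in clone 1 alone.

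Whole-chromosome medians moved the same way. The median log2 change on chromosome 17 was 0.55 in clone 1 and 0.17 in clone 2, and 377 of its genes (57.6%) were called higher in clone 1. Chromosome 4 had medians of 0.16 and -0.15, and chromosome 14 of -0.24 and 0.08. Measured per library against the mean of the WT libraries, chromosome 17 was at 0.53 and 0.52 in clone 1 and 0.16 and 0.15 in clone 2, while the WT libraries were at -0.05 and 0.05. The 2 clone 1 libraries therefore lay close together and apart from the other 4. Other chromosomes moved in both clones, such as chromosome 10 (-0.41 and -0.36), chromosome 8 (0.28 and 0.39) and chromosome 2 (0.26 and 0.29).

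**Figure D4:**
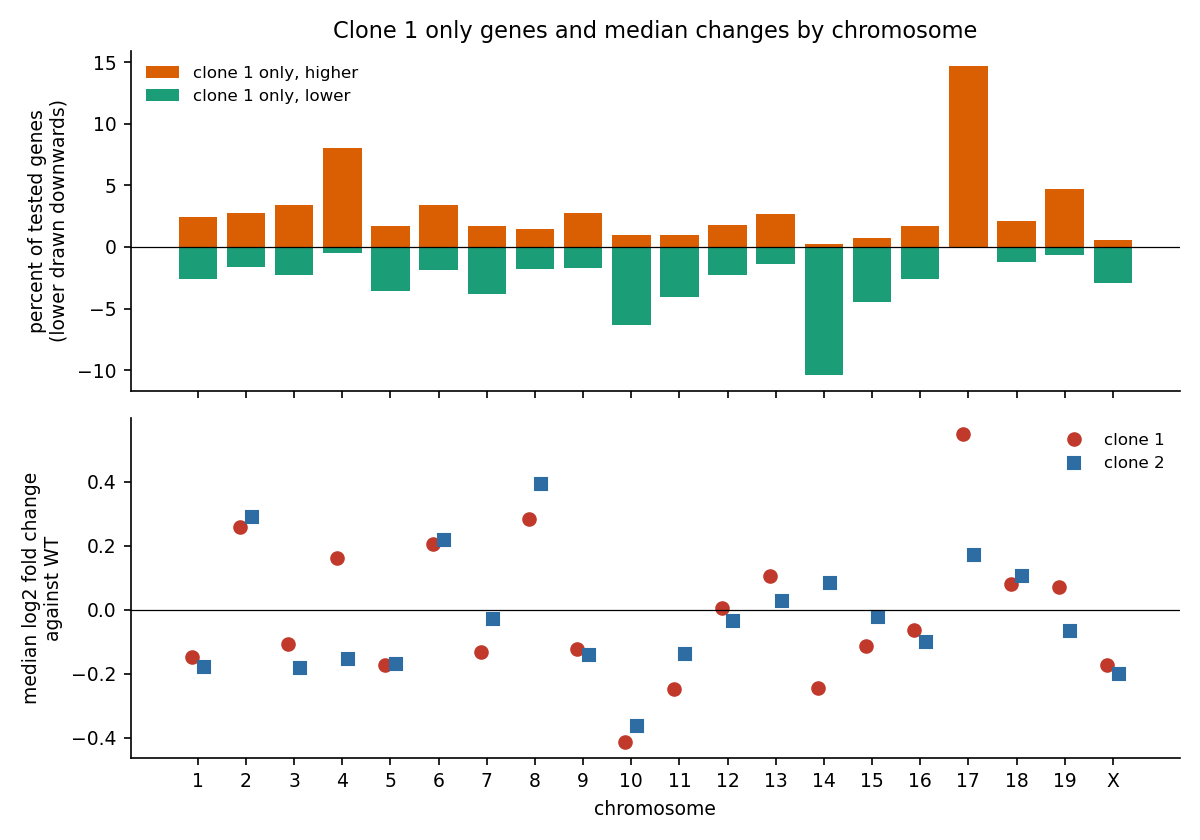
Upper plot, percent of tested genes per chromosome that were higher (orange) or lower (green, drawn downwards) in clone 1 only. Lower plot, median log2 fold change against WT in clone 1 (red circles) and clone 2 (blue squares), where chromosome 17 stands at 0.55 in clone 1 and 0.17 in clone 2.

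The shifts ran along the length of the chromosomes. In 10 blocks of neighbouring genes, the clone 1 medians were between 0.23 and 0.73 on chromosome 17, between 0.08 and 0.25 on chromosome 4, and between -0.36 and -0.05 on chromosome 14, each keeping 1 sign. Clone 2 medians over the same blocks ran from -0.08 to 0.49, from -0.36 to 0.09 and from -0.09 to 0.26. Of the 72 genes with opposite calls, 14 lie on chromosome 17, 11 of them higher in clone 1, and 10 lie on chromosome 14, all lower in clone 1. When each chromosome's median shift was subtracted, the genes specific to clone 1 numbered 300 higher and 296 lower, with 208 and 182 shared with the sets above. Chromosome 17 then held 17 of the higher genes and 13 of the lower ones, chromosome 4 held 20 and 22. Chromosome 14 held 8 of the higher and 11 of the lower ones. DNA copy number was not measured here.

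**Figure D5:**
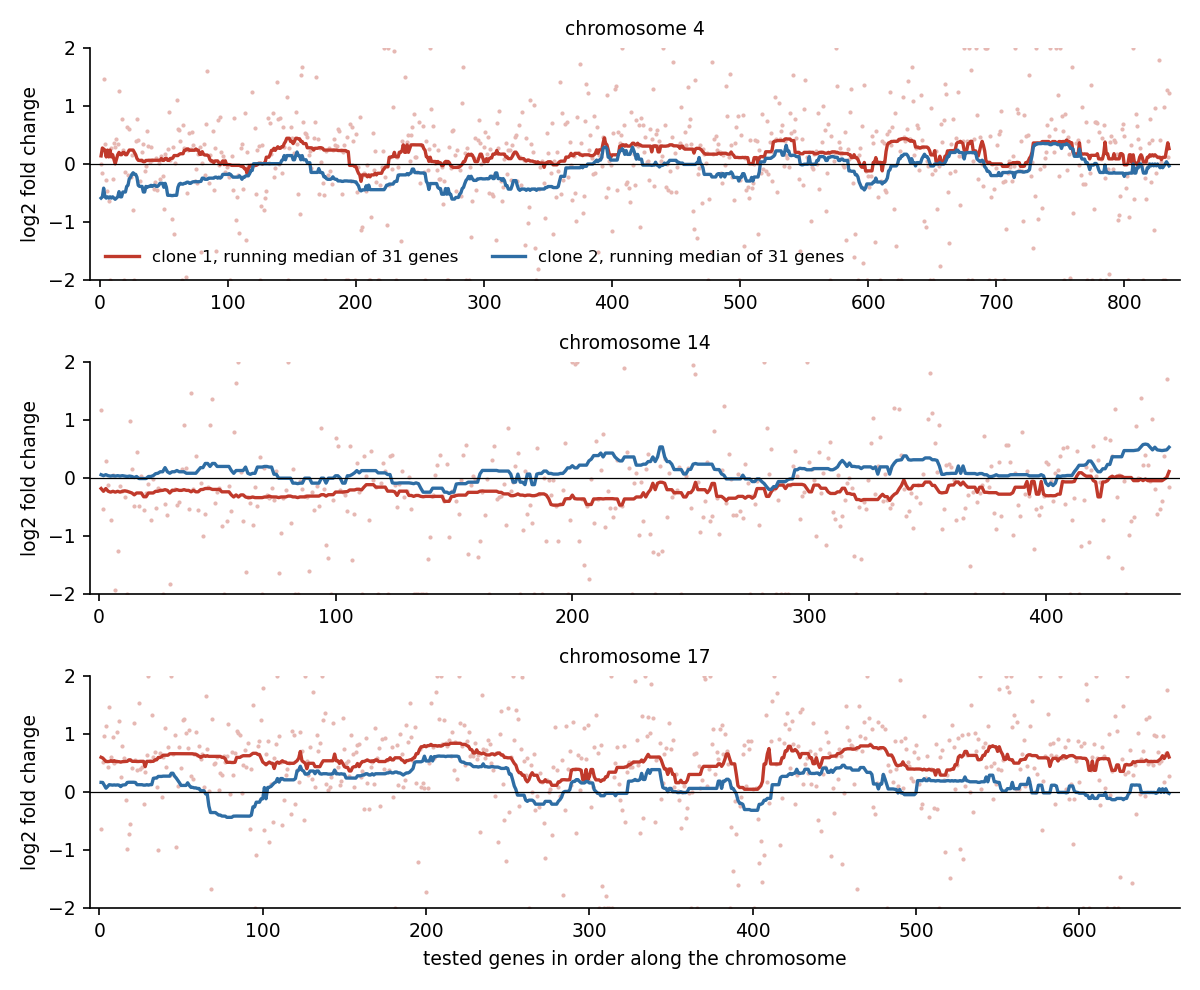
Log2 fold change in clone 1 of each tested gene on chromosomes 4, 14 and 17 in gene order (light points, drawn at the edge beyond 2), with running medians of 31 genes for clone 1 (red) and clone 2 (blue). The red line stays above 0 along chromosome 17 and mostly below 0 along chromosome 14, while the blue line runs mostly below the red one on chromosomes 4 and 17 and above it on chromosome 14.

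Antisense and long intergenic (lincRNA) genes that changed in clone 1 alone all rose. Of 295 antisense genes tested, 34 (11.5%) did so, and of 319 lincRNA genes, 22 (6.90%). For protein-coding genes the shares were 2.65% and 3.24% of 11427. Against WT as a whole, 42.7% of antisense genes were called higher and 8.81% lower in clone 1. Reads on the counted strand made up 92.3% to 95.7% of stranded reads, lowest in WT replicate 2. The shares were 94.8% in WT replicate 1, and 94.7% and 95.5% in the clone 1 libraries. Reads from the opposite strand can add to antisense counts, and their part in these changes was not tested. Kcnq1ot1, an antisense transcript of an imprinted cluster, was at 43.1 and 36.6 CPM in WT, 59.5 and 63.3 in clone 1, with 31.1 and 33.1 in clone 2, highest in clone 1 without overlap.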

How the data were processed

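RNA-seq of rRNA-depleted, stranded libraries was made from 2 WT, 2 clone 1 and 2 clone 2 samples of 4T1 cells. The authors deposited counts of reads per gene in STAR's layout, and per the submitters' processing notes reads were aligned with STAR 2.6.0c to GRCm38 after FastQC. Other settings are not given in the sources used here. The reverse-strand column was used, in which 92.3% to 95.7% of stranded reads fell. Rows of unassigned reads were left out, and gene reads made up 43.2% to 53.1% of each library.

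Counts were filtered (filterByExpr), scaled by TMM and fitted with edgeR 4.0.16 (R 4.3.3, robust quasi-likelihood) over all 6 libraries with 1 term per group. All adjusted p-values are from this test, Benjamini-Hochberg over 13755 genes, called below 0.05. The biological coefficient of variation was 10.4%. Standard errors are the log2 change over the root of F. Alternatives were 20 for results that use clone 2 (21 for clone 1 against WT, with a fit of only those libraries), including DESeq2 1.42.0, limma 3.58.1 (voom), other scalings and filters, and each library left out. GC content and chromosomes came from GENCODE vM21, matching 54079 of 54146 identifiers. The main fit was also run on simulated counts in which few genes changed, all in clone 1. Unlike these data, the simulated counts held no GC or chromosome shifts and no change in clone 2. Intervals cover counting error only.

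Genes named were the 12 largest rises and 12 largest falls of clone 1 alone, the 5 largest clone differences each way among opposite calls and among changes larger in clone 1, the 10 largest changes each way against WT, and from each list all members specific to clone 1 or opposite and the 4 with the smallest p. All had to reach an average log2 CPM of 3 (2 for clone 1 alone), list members apart, and have an ordinary symbol, so genes with few reads can show larger fitted changes. Not all are printed. The members and lists were chosen with earlier results of these data known. At the threshold, Zdhhc21, Tmem191c and Sept9 lay just inside (adjusted p 0.0496, 0.0497, 0.0498) and Orai2, Smarcd3 and Kansl2 just outside (0.0500, 0.0501, 0.0502). Same-numbered replicates did not deviate together, with correlations of -0.156, 0.0819 and 0.00474.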

Additional observations from a re-analysis of the deposited data

Results flagged for a closer look

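Both clones were compared with the same WT libraries, and the effects of 45 named genes differed between them when the clones were tested against each other directly (edgeR's quasi-likelihood test, adjusted p from 5.44e-11 to 0.00658). For all but Mki67, a difference between the clones was part of how the gene was chosen, so these p-values are not separate support. The value after each gene is the log2 difference of clone 1 from clone 2. The targeted gene was higher in clone 1, Mki67 (1.02).

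Among genes that rose in clone 1 alone, the differences were Tle4 (1.27), Epha8 (1.06), Adamtsl3 (1.05), Hist2h2be (1.66), Fahd1 (0.88), Zfp948 (0.92), Ppp1r10 (0.88), Oard1 (0.83), Nrp1 (0.78), Zfp930 (0.68), Zfp942 (1.07) and Bend5 (0.72). Among genes that fell in clone 1 alone, they were Anxa8 (-3.27), Slfn2 (-2.25), St5 (-1.86), Btbd2 (-1.08), Ntn1 (-1.45), Epop (-1.04), Chst11 (-1.42), Flnc (-1.37), Tmem176a (-1.73), Wnt10a (-1.35), Nipa1 (-1.04) and Prickle1 (-1.14).

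Genes called in opposite directions and higher in clone 1 were Jag2 (3.24), Paqr4 (2.22), Car9 (2.12), Ak3 (1.28) and Loxl4 (1.19). Those lower in clone 1 were Lcn2 (-4.95), Slpi (-4.66), Ikbke (-2.25), Vegfc (-1.80) and Glipr2 (-1.54). Genes with a rise larger in clone 1 were Rab26os (1.30), L1cam (1.13), Cachd1 (1.00), Snhg1 (0.96) and Crip1 (0.95), and those with a larger fall were Fam111a (-8.63), Kcnab2 (-4.01), Slc39a4 (-3.59), Xdh (-2.44) and Stab1 (-2.25). The fitted value of Fam111a rests on 1 read in clone 1 and depends on the prior count. All groups held 2 libraries, too few to single out one as an outlier.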

How the results depend on the processing

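Genes called higher and lower against WT in clone 1 ranged from 2581 to 3393 and from 2767 to 3658 when 1 library was left out. The genes of clone 1 alone ranged from 130 to 575 higher and 102 to 535 lower, and opposite calls from 30 to 63. Those higher on chromosome 17 ranged from 47 to 109, those higher on chromosome 4 from 22 to 92, and those lower on chromosome 14 from 21 to 52. The medians ranged from 0.52 to 0.59 on chromosome 17, from 0.15 to 0.17 on chromosome 4 and from -0.26 to -0.18 on chromosome 14. Requiring a change above 1.5-fold left 1116 higher and 1570 lower calls, 37 and 47 genes of clone 1 alone, 7 opposite calls, and 9, 3 and 7 genes on chromosomes 17, 4 and 14. DESeq2 gave 263 higher genes of clone 1 alone and 42 opposite calls. With chromosome medians removed, opposite calls were 44, and chromosomes 17, 4 and 14 held 17, 20 and 11. In the other direction they held 13, 22 and 8. With the GC trend removed as well, a setting chosen after seeing the data, 240 genes were lower in clone 1 alone. These chromosomes then held 7, 13 and 11, with 14, 17 and 14 in the other direction. Upper-quartile scaling gave medians of 0.11 on chromosome 4 and -0.30 on chromosome 14. At 1.5-fold, 0 genes stayed lower than in clone 2 in the unfolded protein response, mitochondrial ribosomal, glycolysis and lysosome lists. In the NF-kB list 5 did, and 10 among cytokines and chemokines, while 3 Notch genes stayed higher than in clone 2.

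With the replicate number as a block, 3256 genes were higher and 3448 lower, 379 and 328 changed in clone 1 alone, and 58 had opposite calls. Whether the numbers mark shared batches cannot be told from the labels. Crossing the numbers in WT and clone 1, chosen after seeing the data, gave 3515 and 3714 calls, and 467 and 430 of clone 1 alone.

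Reversed values were those of Mdc1 (-0.14 with chromosome medians removed, -0.13 with the GC trend removed too), Atp5b (0.0499 and 0.0227) and Ndufv2 (-0.0564 with chromosome medians removed), which lie on chromosomes 17, 10 and 17. Over the named genes, 6186 values kept direction and call, 234 lost the call, 10 gained one and 5 reversed. The cause of the other changes was not tested. Depth limits genes with few reads, such as Hey2, Cbs and Cxcl2, most in WT replicate 1.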
